A study of Mus musculus with 6 samples.

Results

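These 10 genes were set aside here as genes of bile duct and liver progenitor cells: the transcription factor genes Sox4 and Sox9, the keratin genes Krt7, Krt8, Krt18, Krt19, Krt20 and Krt23, the adhesion molecule gene Epcam and Spp1, which encodes osteopontin. Every Affymetrix probe set that the annotation assigns to 1 gene was used, and the probe set with the highest mean over the 6 arrays gave the gene value. Of the 10 genes, 9 had such a probe set, among 18193 genes on the array that had one, and Spp1 was not analysed here. The genes were selected on measured values of the same contrast, since earlier results of these livers were known when they were chosen, so their values are given as a description. Where the text says that one of them met or missed the call of the fit over all genes, this describes where it stands in that fit and is no independent test of it.

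Livers came from 3 GHRH-KO males and 3 wild-type littermate males (labelled Normal and called controls here). GHRH-KO mice lack growth hormone-releasing hormone, the hypothalamic peptide that drives pituitary growth hormone release, in the whole animal and not in the liver alone. All 6 mice were on a mixed C57BL6 and 129SV background from a closed colony, were 10 months old according to the methods, and were fasted for 6 to 8 h before the livers were taken. Each array held 1 animal, with controls numbered 1 to 3 and GHRH-KO mice 4 to 6, and values are robust multichip average (RMA) values on the log2 scale, where a difference of 1 is a doubling. Hepatocyte marker genes averaged 13.15 to 13.36 in each of the 6 livers, and the Ghrh probe set lay between 4.40 and 4.75 in both groups (difference -0.04, SE 0.12), so it served here only as a mark of background and checked no label. A value was taken as background where the group mean did not exceed 4.75. This mark rests on 1 probe set and lies under the median of every array (4.95 to 4.99). Values a little above it, such as those of Sox9, Epcam and, outside control 1, Krt19, may thus be background too.

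Bile ducts are lined by cholangiocytes, which in the adult liver carry Krt7, Krt19, Epcam and Sox9 together with the keratin pair of all simple epithelia, Krt8 and Krt18. Hepatocytes hold only that pair, as an intermediate filament network that protects them from mechanical and toxic stress. Sox9 and Sox4 act in the fetal liver on the formation of the ducts, and duct-like cells that spread during liver injury, the ductular reaction, carry Sox9, Epcam and the duct keratins. Krt20 is best known from intestinal epithelium, and Krt23 is an acidic keratin found in many epithelia and in injured liver.

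Promoter sequence is shown for the 3 genes with a difference of 2 or more, since these letters place each gene and let their starts be compared. Each run holds the 250 bases before the annotated start on the gene's own strand, in RefSeq build GRCm38.p6, for Krt20 at chr11:99438154-99438403 (minus strand), for Krt23 at chr11:99493121-99493370 (minus strand) and for Sox4 at chr13:28953700-28953949 (minus strand). Capitals mark the TATA box TATAAA and the CCAAT box CCAAT, on either strand.
Krt20: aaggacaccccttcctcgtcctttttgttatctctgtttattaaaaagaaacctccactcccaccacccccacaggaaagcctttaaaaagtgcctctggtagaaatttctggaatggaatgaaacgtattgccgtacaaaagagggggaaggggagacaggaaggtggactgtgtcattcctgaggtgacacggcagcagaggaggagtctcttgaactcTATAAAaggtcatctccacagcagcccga
Krt23: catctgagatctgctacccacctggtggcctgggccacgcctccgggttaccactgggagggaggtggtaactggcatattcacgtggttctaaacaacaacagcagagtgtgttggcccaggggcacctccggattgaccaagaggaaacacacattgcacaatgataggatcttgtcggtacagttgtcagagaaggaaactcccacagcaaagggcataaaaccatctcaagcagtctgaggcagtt
Sox4: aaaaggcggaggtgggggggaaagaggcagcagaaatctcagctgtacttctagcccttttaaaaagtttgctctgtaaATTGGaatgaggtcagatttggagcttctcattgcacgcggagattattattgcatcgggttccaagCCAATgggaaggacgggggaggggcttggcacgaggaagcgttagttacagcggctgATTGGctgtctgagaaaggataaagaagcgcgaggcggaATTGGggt

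Krt20 held 1 TATA box with its first base at position -29 from the start, a motif present in the same window of 12.4% of 32851 promoters. Sox4 held no TATA box and 4 CCAAT boxes, with first bases at -171, -104, -47 and -8, while 33.8% of promoters held at least 1. Neither was found in the Krt23 window. The palindrome TTCNNNGAA bound by STAT5, the factor through which growth hormone acts on liver genes (7.02% of promoters), and the SOX site AACAAT (9.42%) were searched on both strands and were in none of the windows of Sox4, Krt20, Krt23, Krt7, Krt8, Krt18 and Epcam. No match says only that these letters were not in this window.

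Among the controls, 1 array read high in more genes than the others. Control 1 exceeded both other controls by more than 1 on the log2 scale in 149 of 12469 genes tested (1.19%), as compared to 13 genes for control 2 and 14 genes for control 3. The 149 included Krt19, 10 of 16 Kupffer cell or macrophage markers tested, 4 of 15 stellate cell or fibroblast markers and the pancreatic enzyme gene Ctrb1. This count covered only controls and only high values, so it does not make control 1 the least typical array. Array weights in limma are lower for arrays that fit the rest less well. They were 1.05, 0.54 and 1.37 for controls 1 to 3 and 0.98, 0.40 and 3.35 for GHRH-KO replicates 4 to 6. Results with array weights thus rest most on GHRH-KO replicate 6. Macrophage markers averaged 8.61 in control 1 and 8.64 in GHRH-KO replicate 4. Values without control 1 are given beside the results it moved most, a choice made after the data were seen. In whole-liver RNA, more cells of a type and more RNA per cell cannot be told apart.

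Sox4, Krt23 and Krt20 were much higher in GHRH-KO liver, whereas of the genes that define adult ducts, Sox9 had a difference of -0.54, Epcam one of 0.25 and Krt19 one of -0.60 that became 0.20 without control 1, and Krt7 was at background in both groups. Of the 9 genes, 8 were bright enough to be tested with limma over all genes, and 2 of those, Sox4 and Krt20, met the call used throughout (Benjamini-Hochberg adjusted p under 0.05 and a fold change above 1.5 or below 0.67), both in the higher direction. Over all genes tested, 1.76% met that call, 0.786% in the higher and 0.97% in the lower direction, and nothing is read from the count, since the genes were chosen on this contrast. Krt7, below the intensity filter, was not tested. Among the 8 genes, the 3 GHRH-KO animals lay above all 3 controls for Sox4, Krt20 and Krt23 and below them for Sox9, and the groups overlapped for the other 4, while over all genes 12.7% lay apart in the higher and 15.7% in the lower direction.

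**Figure D1:**
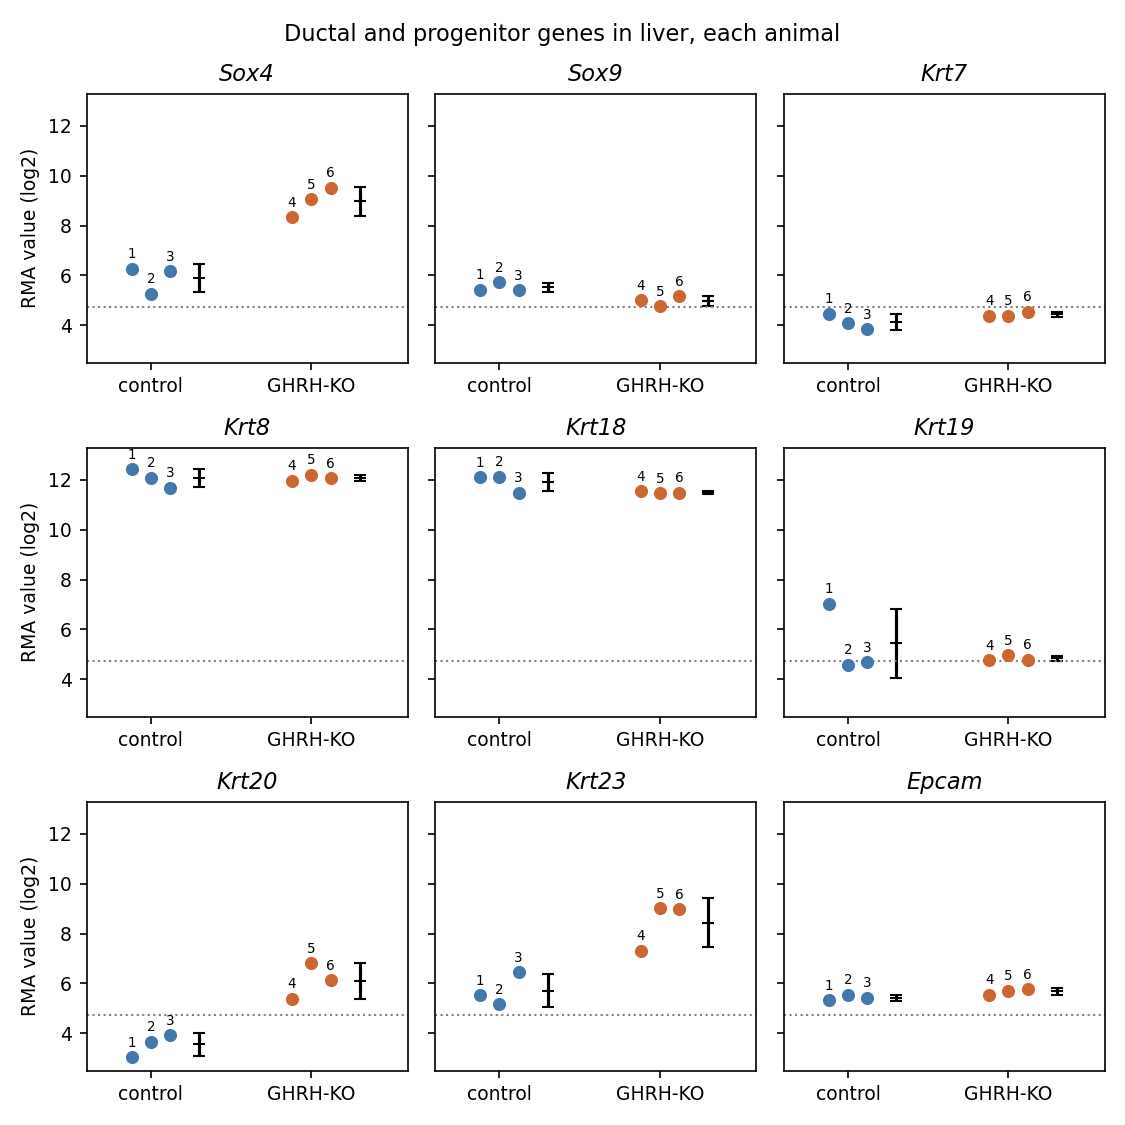
RMA value (log2, vertical axis) of the 9 genes in each animal, numbered by replicate, with the group mean and SD (n = 3) as bars and the highest Ghrh value, 4.75, as a dotted line. Sox4, Krt20 and Krt23 lie higher in all 3 GHRH-KO animals, Sox9 lies slightly lower, and control 1 alone is high for Krt19.

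Sox4, a transcription factor of progenitor and developing tissues, had a large difference. Its values were 6.27, 5.26 and 6.17 in the controls and 8.34, 9.05 and 9.52 in GHRH-KO mice (probe set 1433575_at). The lowest GHRH-KO animal was thus above the highest control. The means were 5.90 ± 0.55 and 8.97 ± 0.60 (SD, n = 3), a difference of 3.07 (SE 0.36), or 8.38-fold. With any 1 of the 6 animals left out, the difference lay between 2.75 and 3.38, a range that the choice of the gene on this contrast favoured.

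Sox4 has 8 probe sets, and they did not all move alike. On 1419156_at, the values were 4.73, 4.64 and 4.62 in controls and 5.88, 6.14 and 6.65 in GHRH-KO mice, a difference of 1.56 (SE 0.20) that met the call, with the control mean at background. On 1419155_a_at, they were 5.20, 5.38 and 5.03 as compared to 5.81, 6.12 and 7.02, a difference of 1.11 (SE 0.30) with groups apart that did not meet it. These probe sets thus pointed the same way as the brightest one, with smaller differences. The fourth tested, 1455867_at, gave -0.18 (SE 0.14). The remaining 4 were at background in both groups and below the filter, with differences of 0.00, 0.22, 0.35 and 0.35. Averaged over the 4 probe sets tested, the Sox4 difference was 1.39 in place of 3.07, so its size depends on the probe set taken.

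Sox9, the transcription factor that marks adult ducts and ductal progenitors, differed in the other direction. Control values were 5.43, 5.72 and 5.41, and GHRH-KO values were 5.0, 4.76 and 5.16 (probe set 1451538_at). All 3 GHRH-KO animals were lower, by 0.54 on average (difference -0.54, SE 0.15), without meeting the call. The second probe set, 1424950_at, read 5.10, 5.60 and 5.23 in controls and 4.72, 4.34 and 4.71 in GHRH-KO mice (difference -0.72, SE 0.18), again apart and lower, with the GHRH-KO mean at background. The third, 1433889_at, was at background in both groups (difference -0.04, SE 0.14). The differences of Sox4 and Sox9 thus had opposite signs, with that of Sox9 much the smaller and measured on dim probe sets.

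Krt23 read 5.52, 5.16 and 6.44 in controls and 7.31, 9.03 and 8.97 in GHRH-KO mice (probe set 1418213_at). The groups did not overlap, but each was widely spread, with GHRH-KO replicate 4 well under the other two. The means were 5.70 and 8.44, a difference of 2.73 (SE 0.52), or 6.65-fold, and the adjusted p missed the threshold. Without GHRH-KO replicate 4, the difference was 3.30 and the call was met. With any other single animal left out it was not met.

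Krt20 lies next to Krt23 on chromosome 11. Its control values, 3.05, 3.67 and 3.93, were all at background, and its GHRH-KO values were 5.38, 6.80 and 6.13 (probe set 1426284_at). The signal thus appeared above background in the GHRH-KO animals alone. The difference was 2.55 (SE 0.38), and with controls at background the fold is a lower bound, at least 5.87-fold higher. Krt20 is one of the genes counted as called above, but nothing is read from this: it passed the intensity filter only through the GHRH-KO animals, since its control mean of 3.55 was below the lowest mean that passed, 4.64. It no longer met the call when control 1, 2 or 3 or GHRH-KO replicate 6 was left out. With any 1 of the 6 animals left out, the difference lay between 2.21 and 2.91, a range that the choice of the gene favoured.

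The other keratin neighbours on the chromosomes differed little. Krt12, a corneal keratin on the other side of Krt20, was at background in both groups (means 3.37 and 3.40), and Krt15, beside Krt19, was too (3.98 and 3.96). Krt80, beside Krt7, had a difference of 0.09 (SE 0.12), and Krt78, beside Krt8, one of -0.07 (SE 0.12). Thus among the neighbours with a value, Krt20 and Krt23 were the pair with large differences. Both were chosen on this contrast, so nothing is read from this. Krt12 and Krt15, at background, hold no usable difference, and some neighbours, such as Krt39 beside Krt23, had no value.

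Krt8 and Krt18, partners in one filament and neighbours on chromosome 15, were bright in every liver. Krt8 read 12.43, 12.09 and 11.69 in controls and 11.97, 12.21 and 12.07 in GHRH-KO mice (probe set 1420647_a_at, difference 0.01, SE 0.20). Its other probe sets gave 0.08 (SE 0.15, 1435989_x_at) and -0.02 (SE 0.18, 1423691_x_at), and the suffix _x_at marks probes that can also bind other transcripts. Krt18 read 12.11, 12.12 and 11.49 in controls and 11.55, 11.46 and 11.48 in GHRH-KO mice (probe set 1448169_at, difference -0.41, SE 0.19). Control 3 lay among the GHRH-KO animals, so the groups overlapped. Neither gene met the call.

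Krt19, the keratin most used to stain ducts, was high in 1 animal only. It read 7.04 in control 1, 4.59 and 4.69 in controls 2 and 3, and 4.76, 4.97 and 4.79 in GHRH-KO mice (probe set 1417156_at). Control 1 was 2.35 above the next control, and the other 5 livers lay within 4.59 to 4.97. The difference was -0.60 (SE 0.61) with control 1 and 0.20 without it, so its direction rests on that animal. Krt7, the second classical duct keratin, was at background in both groups, at 4.47, 4.09 and 3.85 in controls and 4.38, 4.39 and 4.55 in GHRH-KO mice (probe set 1423952_a_at).

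Epcam, the epithelial adhesion molecule of ducts and progenitors, read 5.32, 5.55 and 5.42 in controls and 5.54, 5.71 and 5.78 in GHRH-KO mice (probe set 1447899_x_at, difference 0.25, SE 0.12). The groups overlapped by a narrow margin. The second probe set, 1416579_a_at, read 5.93, 4.69 and 4.54 in controls and 5.24, 5.27 and 5.69 in GHRH-KO mice (difference 0.35, SE 0.36), with control 1 again above the other controls and above all GHRH-KO animals. Neither met the call.

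**Figure D2:**
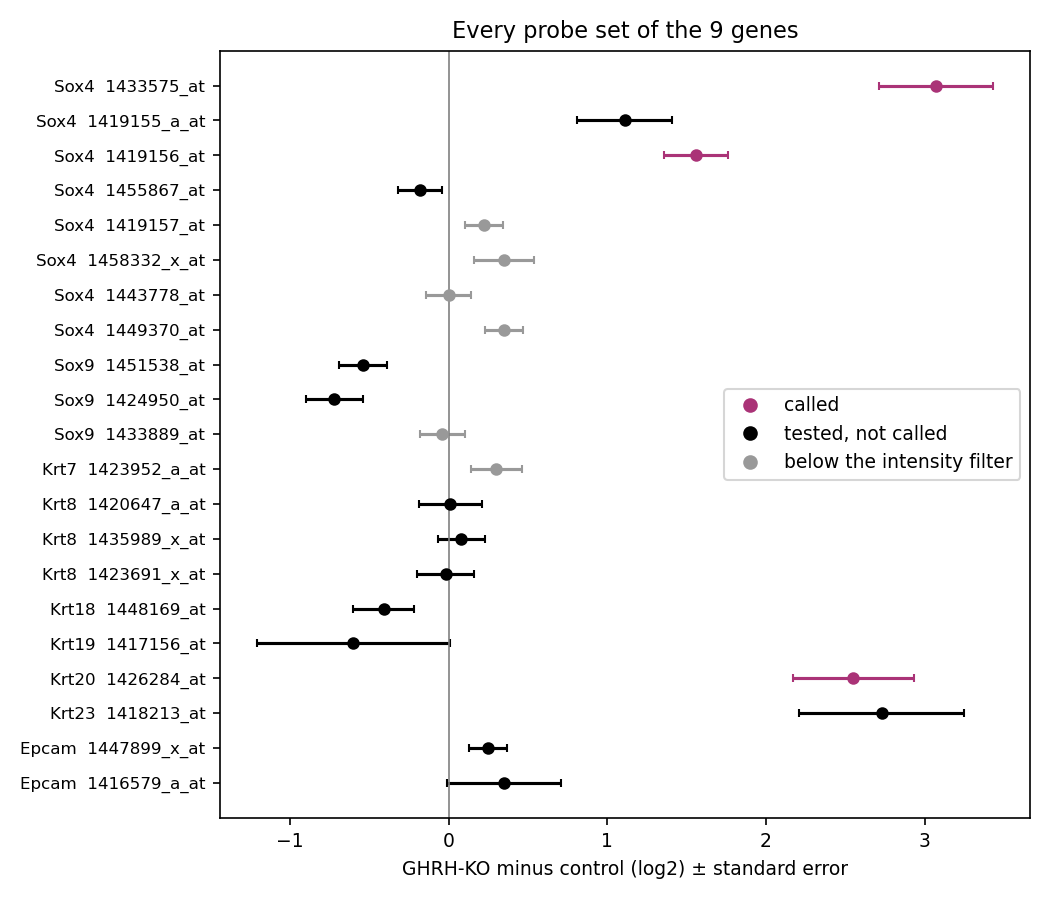
Difference between GHRH-KO and control means (log2, horizontal axis) with its standard error for each of the 21 probe sets of the 9 genes, 15 tested and 6 below the intensity filter, coloured by whether the call was met. The large positive differences belong to 3 of the Sox4 probe sets and the single ones of Krt20 and Krt23, and Krt19 has the widest error.

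A few other duct and progenitor genes stood high in control 1. It exceeded both other controls by more than 1 in 2 of 27 cholangiocyte and duct genes and 3 of 19 liver progenitor and fetal liver genes tested. Sox9, in contrast, was highest in control 2. The main Epcam probe set, an _x_at one, was lowest in control 1. The second, 1416579_a_at, was highest there (5.93, as compared to 4.69 and 4.54 in the other controls). Among the companion lists described next, Muc1, an apical mucin, read 7.06 in control 1 as compared to 5.57 and 5.45 in the other controls and 5.24, 5.32 and 5.48 in GHRH-KO mice. Tspan8, a tetraspanin of duct and gut epithelium, read 5.96, 3.94 and 4.03 in controls and 5.09, 5.33 and 5.39 in GHRH-KO mice. Cd24a, a surface protein of ducts and progenitors, read 7.74, 4.57 and 4.98 in controls and 6.63, 6.46 and 7.24 in GHRH-KO mice. For Krt19 and Muc1 the GHRH-KO animals lay near controls 2 and 3, whereas for Tspan8 and Cd24a they lay between these and control 1. These genes were picked after their values were seen.

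**Figure D3:**
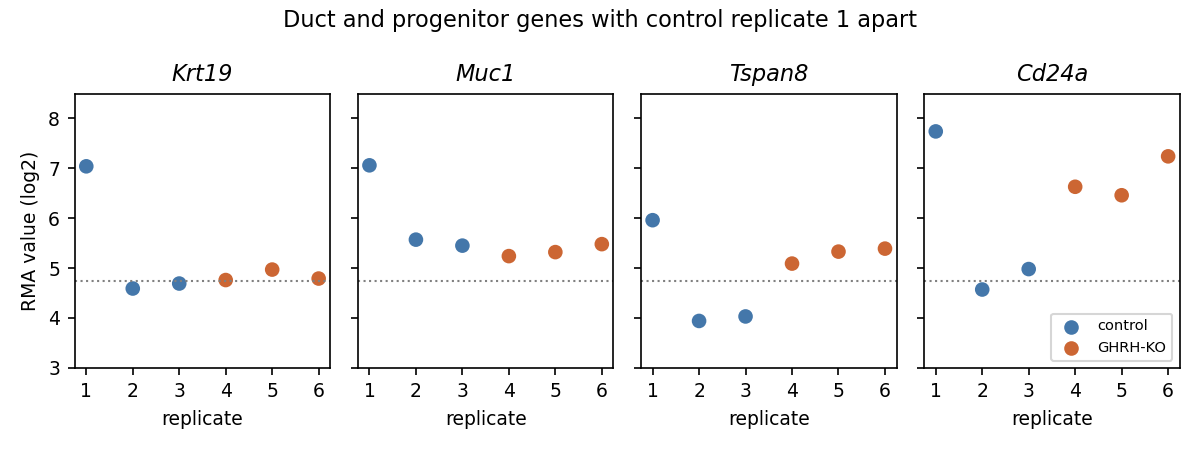
RMA value (log2, vertical axis) of Krt19, Muc1, Tspan8 and Cd24a in each animal (replicates 1 to 3 control, 4 to 6 GHRH-KO), with the highest Ghrh value, 4.75, as a dotted line. Control 1 is the highest of the 6 livers for all 4 genes, at 5.96 to 7.74.

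Companion genes of the same cells and pathways, listed by their known roles, gave no call. The 7 lists held 164 genes tested, and limma called 0 of them. With an unadjusted p below 0.05, 25 were higher and 14 lower, as compared to 9.15% of all genes tested in the higher and 10.1% in the lower direction. The median difference was 0.07 over the companion genes, 0.13 over the 8 genes tested and 0.003 over all genes. The count depended on the animals and settings used. Without control 1, 7 of the 164 were called, all higher, when 1.22% of all genes were, and with array weights and all 6 animals, 8 were called, when 4.30% of all genes were, with Ppl and Tgfbr2 in both sets. Those called without control 1 were Cd44 (difference 2.00), Cd24a (2.00), Tspan8 (1.28) and the TGF-beta receptor Tgfbr2 (1.59). The others were the mesenchymal filament gene Vim (1.36), the plakin Ppl (1.25) and the Hippo pathway factor Tead2 (1.23). Control 1 was the highest control for each, and for Cd44, Cd24a, Tspan8 and Tead2 by more than 1. Leaving it out raised these differences and narrowed the control spread. Nothing is thus read from these calls, their direction or the comparison with 1.22%. For Tspan8 (3.94 and 4.03) and Tead2 (4.15 and 4.21), both remaining controls were at background. In the same comparison, which has only 2 controls, the macrophage marker Cd68 (1.64) and the fibroblast marker Pdgfra (1.03) were called higher too. Control 1 exceeded both other controls by more than 1 for these markers as well. The part of those cell types in the companion calls was not tested.

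Of 27 cholangiocyte and duct genes tested, 5 were higher and 3 lower with an unadjusted p below 0.05 (median 0.07). Bicc1, an RNA-binding protein of bile duct and kidney tubules, read 6.13, 6.18 and 6.04 in controls and 6.44, 6.68 and 6.92 in GHRH-KO mice (difference 0.56, limma adjusted p = 0.119). E-cadherin, Cdh1, was at 8.34, 7.27 and 7.34 as compared to 6.08, 5.93 and 7.04 (difference -1.30, adjusted p = 0.152). The tight junction gene Cldn3 was at 11.01, 11.21 and 11.20 as compared to 10.63, 9.77 and 10.65 (difference -0.79, adjusted p = 0.164). The groups lay apart for each of these, in both directions. The largest difference of the list, 2.02 (SE 1.05) for the acute-phase gene Lcn2, went with groups that overlapped.

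Liver progenitor and fetal liver genes had the highest median of the 7 lists, 0.47, with 8 of 19 higher and 1 lower with an unadjusted p below 0.05. Scd2, the fetal-type stearoyl-CoA desaturase, read 6.84, 5.55 and 5.70 in controls and 10.05, 8.77 and 7.82 in GHRH-KO mice (difference 2.85, limma adjusted p = 0.0710). Cd44, a receptor for hyaluronan and osteopontin, read 7.19, 5.29 and 6.00 as compared to 7.59, 7.78 and 7.58 (difference 1.49, adjusted p = 0.148). The membrane-binding protein gene Anxa2 read 8.64, 7.73 and 7.88 as compared to 8.66, 9.50 and 9.31 (difference 1.07, adjusted p = 0.139). Without control 1, the median of the list was 0.68, and the differences were 3.25 for Scd2 (adjusted p = 0.0822) and 1.35 for Anxa2 (adjusted p = 0.0948). Control 1 was the highest control for each of these, and for Anxa2 it came just below GHRH-KO replicate 4 (8.64 and 8.66).

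Osteopontin itself was not analysed here, but its receptors and partners were. Of 15 tested, 6 were higher and 1 lower with an unadjusted p below 0.05, with a median of 0.33. Besides Cd44, the lowest p-values belonged to the matrix protease gene Mmp2 (means 6.28 and 6.76, difference 0.48, adjusted p = 0.151) and the integrin gene Itga4 (5.90 and 6.35, difference 0.45, adjusted p = 0.160). For both, the groups lay apart.

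Of the other keratins, 18 of 41 on the array were bright enough to be tested, and of the other SOX factors 12 of 18. Those tested stayed close to 0. The keratins tested averaged only 5.35 to 5.59 in the 6 livers, and RMA understates differences of dim genes. None of the 18 other keratins tested had an unadjusted p under 0.05, their differences lay between -0.08 and 0.31, and the lowest p-values were those of Krt10 (0.31, adjusted p = 0.347), Krt42 (0.26, 0.352) and Krt71 (0.17, 0.520). None of the 12 other SOX factors did either, with differences from -0.32 to 0.27, led by Sox6 (0.27, adjusted p = 0.303), the endothelial factor Sox18 (-0.25, 0.378) and Sox13 (-0.22, 0.392). The differences of Sox4, Krt20 and Krt23, genes chosen on this contrast, lay outside these ranges.

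Keratin filament and junction partners had 3 genes higher and 4 lower among 33 tested with an unadjusted p below 0.05 (median 0.02). The tight junction gene Cldn2 read 10.62, 10.64 and 10.57 in controls and 10.16, 9.99 and 9.89 in GHRH-KO mice (difference -0.59, limma adjusted p = 0.0640). Desmoplakin, Dsp, which ties keratins to desmosomes, was at means of 10.74 and 10.23 (difference -0.51, adjusted p = 0.128). Periplakin, Ppl, which binds the keratins of simple epithelia, was at 7.49, 6.78 and 6.63 as compared to 7.77, 7.96 and 8.12 (difference 0.98, adjusted p = 0.0999). The groups lay apart for each, with Cldn2 and Dsp lower and Ppl higher in GHRH-KO liver, and none met the call.

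Notch, Hippo and TGF-beta genes belong to pathways that steer cells toward the duct fate. Of 44 tested, 5 were higher and 6 lower with an unadjusted p below 0.05 (median 0.02). Lfng, a glycosyltransferase that modifies Notch, read 4.79, 4.98 and 4.78 in controls and 5.47, 5.51 and 5.41 in GHRH-KO mice (difference 0.61), and its limma adjusted p of 0.0564 was the lowest of all companion genes. Tgfbr2 read 8.77, 7.67 and 8.03 as compared to 9.24, 9.54 and 9.54 (difference 1.28, adjusted p = 0.0781). Ccn2, a matrix protein gene induced by Hippo and TGF-beta signalling, read 7.49, 7.04 and 6.66 as compared to 7.93, 8.51 and 8.12 (difference 1.13, adjusted p = 0.0803). The groups lay apart for all of these.

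**Figure D4:**
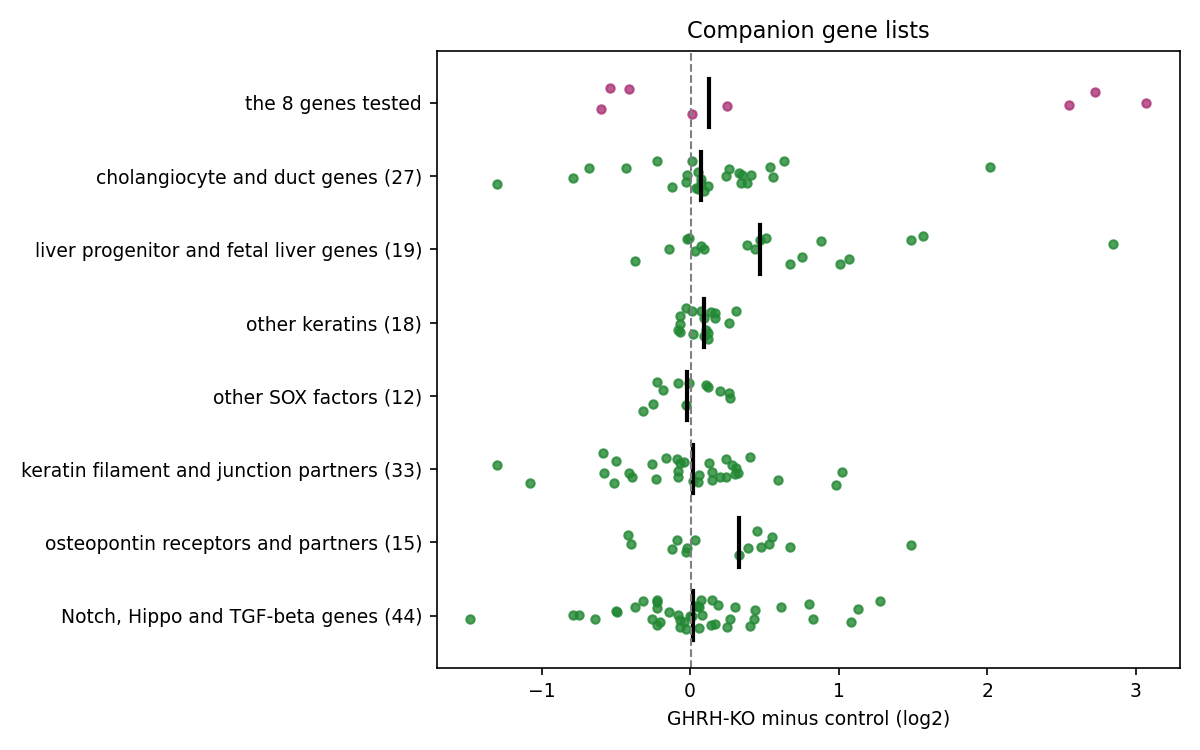
Difference between GHRH-KO and control means (log2, horizontal axis) for the 8 genes tested and for each gene of the 7 companion lists (number tested in brackets), with the list median as a black bar and the median of all genes tested, 0.003, as a dashed line. The medians of the lists lie between -0.02 and 0.47, and the other keratins and SOX factors form the narrowest clusters.

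Markers of liver cell types were set beside these values. The cholangiocyte markers tested, 7 of the 12 on the array, had a mean level of 6.04, 5.30 and 5.27 in controls and 5.51, 5.69 and 5.75 in GHRH-KO mice, and Krt7, Cftr, Cldn4, Anxa13 and Ehf were below the filter. Their median difference was 0.25, none was called, and Krt19, Sox9 and Epcam are themselves among the 7. The medians were 0.32 for 16 Kupffer cell or macrophage markers, 0.31 for 15 stellate cell or fibroblast markers, 0.55 for 4 mesothelial markers, 0.19 for 13 endothelial markers, 0.09 for 3 lymphocyte markers, -0.05 for 15 hepatocyte markers, -0.05 for 6 intestinal or gallbladder markers and -0.57 for 4 pancreatic acinar markers. The mean of the macrophage markers was 8.61, 7.51 and 7.39 in controls and 8.64, 7.46 and 8.04 in GHRH-KO mice, and that of the stellate cell markers 8.48, 7.80 and 7.82 as compared to 8.16, 8.39 and 8.52. Without control 1, the medians were 0.72 for the macrophage, 0.51 for the stellate cell, 0.20 for the cholangiocyte and -0.18 for the acinar markers. Their part in the differences of Sox4, Krt20 and Krt23 was not tested. Of the 76 markers tested, 1 was called, the elastase gene Cela1 (difference -2.07, limma adjusted p = 0.00910). It read 11.16, 10.45 and 11.15 in controls and 8.57, 9.04 and 8.95 in GHRH-KO mice. The other acinar markers tested were dimmer, with control means of 5.29 for Prss2, 6.39 for Cela3b and 6.5 for Ctrb1. Their differences were 0.01, 0.32 and -1.15. Whether the Cela1 signal came from acinar cells was not tested.

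The genes whose values over the 6 livers were most like those of Sox4, Krt23 and Krt20 were found by the root mean square distance between values centred on each gene's mean, among 12468 other genes tested. The distance reads the difference between the groups as well as the spread within them, and it says nothing on function. Nearest to Sox4 was the very-low-density lipoprotein receptor gene Vldlr (distance 0.20), at 6.00, 4.86 and 6.04 in controls and 7.78, 8.52 and 8.76 in GHRH-KO mice. Control 2 was the lowest and GHRH-KO replicate 6 the highest for both. The chemokine scavenger receptor gene Ackr3 (0.31) and Parp16, an ADP-ribosyltransferase of the endoplasmic reticulum (0.33), came next. Differences were 2.72 for Vldlr, 3.08 for Ackr3 and 2.5 for Parp16. Their large size follows from the choice by nearness to Sox4, so no test of them is given. Ackr3, with a control mean of 4.30, passed the intensity filter only through the GHRH-KO animals, as Krt20 did.

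Parp16 was also nearest to Krt23 (distance 0.31), followed by the monocarboxylate transporter gene Slc16a5 (0.37) and the aspartic protease gene Ctse (0.37). Krt20 ranked at 6 and Sox4 at 7 in nearness to Krt23. Seen from Sox4, Krt23 ranked at 8 and Krt20 at 24. Sox4, Krt23 and Krt20 were taken for their large differences, which the distance reads. Their ranks among each other, here and below, follow largely from that choice, and nothing is read from them. Nearest to Krt20 were the proton pump subunit gene Atp6v0d2 (0.35), Slc16a5 (0.39) and Rgs16, a regulator of G protein signalling (0.40), with Krt23 at rank 6 (0.44) and Sox4 at rank 27 (0.63). GHRH-KO replicate 4 was the lowest GHRH-KO animal for Sox4, Krt23 and Krt20 and for each of these nearest genes, which their choice by distance favoured.

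**Figure D5:**
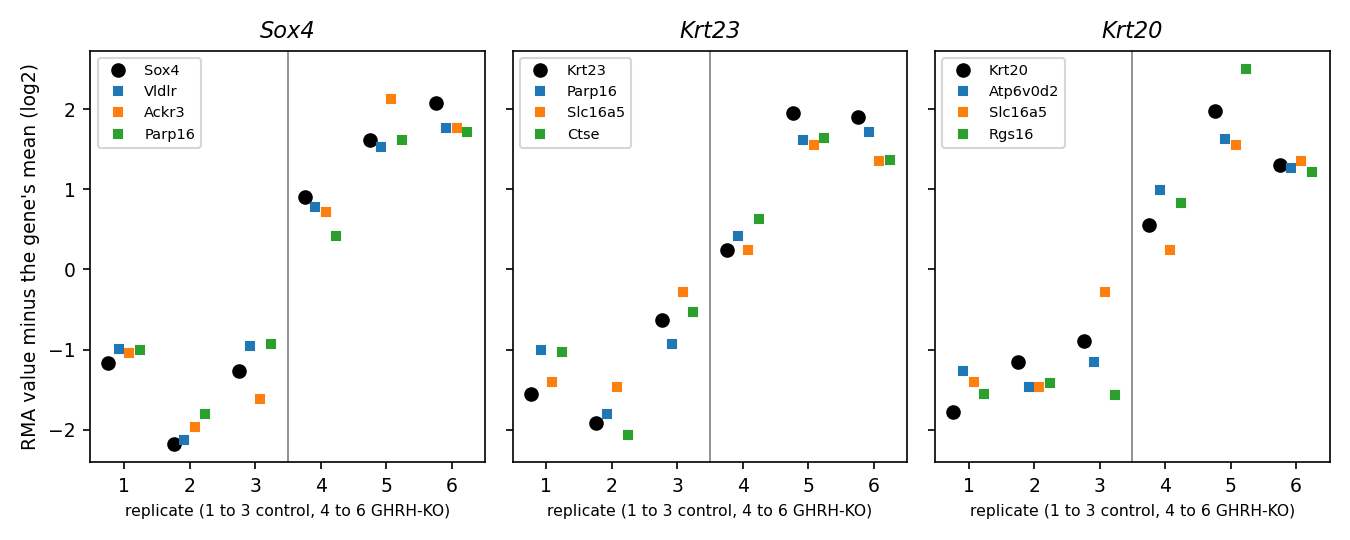
RMA value minus the gene's mean over the 6 livers (log2, vertical axis) of Sox4, Krt23 and Krt20 (black circles) and the 3 nearest genes of each (coloured squares), by replicate (1 to 3 control, 4 to 6 GHRH-KO). In each panel replicate 4 is the lowest of the GHRH-KO animals.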

How the data were processed

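Total liver RNA of 3 control and 3 GHRH-KO male mice was hybridised to Affymetrix Mouse Genome arrays, 1 animal each. The authors deposited RMA values on the log2 scale for 45101 probe sets (background correction, quantile normalization, probe summary; version not given in the sources used here). Detection calls were not used here, so the brightest 25145 probe sets by mean entered the tests, the number the methods kept by detection. RMA draws low signals together, so differences of dim genes are understated.

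Probe sets were named from the platform annotation (34958 with 1 gene, 932 with several, 9211 with none listed). Differences were tested with limma 3.58.1 in R 4.3.3, with Benjamini-Hochberg adjustment over all probe sets tested, after tests on simulated data. With 3 animals a group, no exact permutation p can fall below 0.1, so none was used. The genes and lists were chosen with earlier results of these data known. Named genes were all 9 genes with every probe set, called genes and otherwise the 3 lowest p-values of each companion list, called markers, the 3 nearest patterns, Ghrh and chromosomal neighbours. Arrays correlated at 0.973 to 0.994. Alternatives covered the filter, normalization, probe set choice, array weights, prior variance and each animal left out. Promoters came from RefSeq (8 of 10 genes matched). Figures were drawn with matplotlib 3.10.9.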

Additional observations from a re-analysis of the deposited data

How the results depend on the processing

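Sox4 and Krt20 were the 2 genes called. Under 15 alternatives, Sox4 was called in 14, Krt20 in 9 and Krt23 in 3. The number called was 1 (Sox4) with the stricter filter, from 1 to 3 with 1 animal left out, and 0 without control 2 and GHRH-KO replicate 5 together, where 2 animals a group remain. Of 125 differences recomputed for the 9 genes, 123 moved by less than 1 pooled SD within groups. Leaving out 1 of 3 animals cannot move a difference that far. The filter and prior settings leave the differences as they are, so the count is no measure of stability. Krt19 changed sign, from -0.60 to 0.20 without control 1, and is among the 123. Of the others, Sox4 went from 3.07 to 1.39 with the mean over probe sets, by averaging in dimmer probe sets. Sox9 went from -0.54 to -0.33 without control 2, its highest control (5.72), and GHRH-KO replicate 5, its lowest GHRH-KO animal (4.76). Companion genes called were 0, and became 2 with no filter (Bex1, Lfng), 1 with the probe set of lowest p (Onecut1), 1 with the mean over probe sets (Lfng), 1 with a trended prior (Lfng) and 8 with array weights (Bicc1, Ccn2, Cldn2, Hhex, Lfng, Ppl, Prom1, Tgfbr2), where 4.30% of all genes were called. They ranged from 0 to 7 with 1 animal left out, with 7 without control 1 and 1 (Prom1) without GHRH-KO replicate 5. Control 1 was the highest control for each of those 7, so nothing is read from that count. Marker genes called were 1 (Cela1), 3 with array weights (also Pck1, Pdgfrb) and 1 to 3 with 1 animal left out, with 3 without control 1 (also Cd68, Pdgfra), settings chosen after seeing the data, as were the list medians without control 1. No paired analysis was possible because the sample labels name no litters or pairs. The number of arrays limits the precision, and genes at background, such as Krt7, hold no usable difference.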
